A study of Ovis aries with 15 samples.

Results

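Gene expression in the longissimus dorsi, the long muscle of the back, was compared between sheep fetuses at 120 d of gestation and lambs at 230 d of development, which was 12 weeks of age, so that the values show what still differed once the newborn period had passed. The comparison was chosen by stage label alone and used 6 of the 15 arrays of the series, 3 per stage, with 1 array per animal and different animals at each stage. All animals came from a flock of Dorset/Suffolk/Rambouillet crosses and received no treatment. By the methods of the study, the 120 d fetuses were 2 males and 1 female and the 230 d lambs were 3 males, and the labels do not say which 120 d array is from the female. Ovine RNA was hybridised to a bovine array, and probes that match the sheep sequence poorly can also give a low signal. The signal is the MAS5 value, on a linear scale in which each array was set to a mean of 200. Newborn lambs at 150 d, again 3 animals, are set beside the pair of stages where they show when a difference was present. Values with ± are means and SD over 3 arrays unless SE is written, and log2 differences are always 230 d minus 120 d.

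Skeletal muscle fibres form before birth with embryonic and neonatal forms of the contractile proteins, which are replaced by adult fast and slow forms as the animal starts to stand and move. A fetus lives largely on glucose and lactate from the placenta, whereas a suckling or grazing lamb also burns fat, and the mitochondria of muscle carry out that oxidation. Fetal muscle also holds dividing cells, a growing connective tissue matrix and transcripts of imprinted genes, many of which regulate growth before birth.

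A fold against a stage whose geometric mean was under 50 was taken against 50 and is written as at least. Of the 24016 probe sets left after removal of controls, 14115 gave a signal of 50 or more on at least 3 of the 6 arrays and were tested. At an adjusted p under 0.01, 2452 probe sets differed between 120 d and 230 d (17.4% of those tested), 1026 of them higher and 1426 lower at 230 d. Counted over genes, with 1 probe set each, 618 of 6981 genes were higher at 230 d (8.85%) and 728 were lower (10.4%), and 472 and 544 of these differed by 2-fold or more. The 3 values at 230 d all lay above the 3 at 120 d in 1584 genes (22.7%) and all below them in 1759 (25.2%). The median log2 difference over all genes was -0.04. Without 120 d replicate 3 the test called 848 genes in place of 1346, and without 120 d replicates 1 or 2 it called 1005 and 904 (1 of these fits leaves out the female). The fit took its estimate of the spread from all 15 arrays, and with the 6 arrays alone it called 522 genes.

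**Figure D1:**
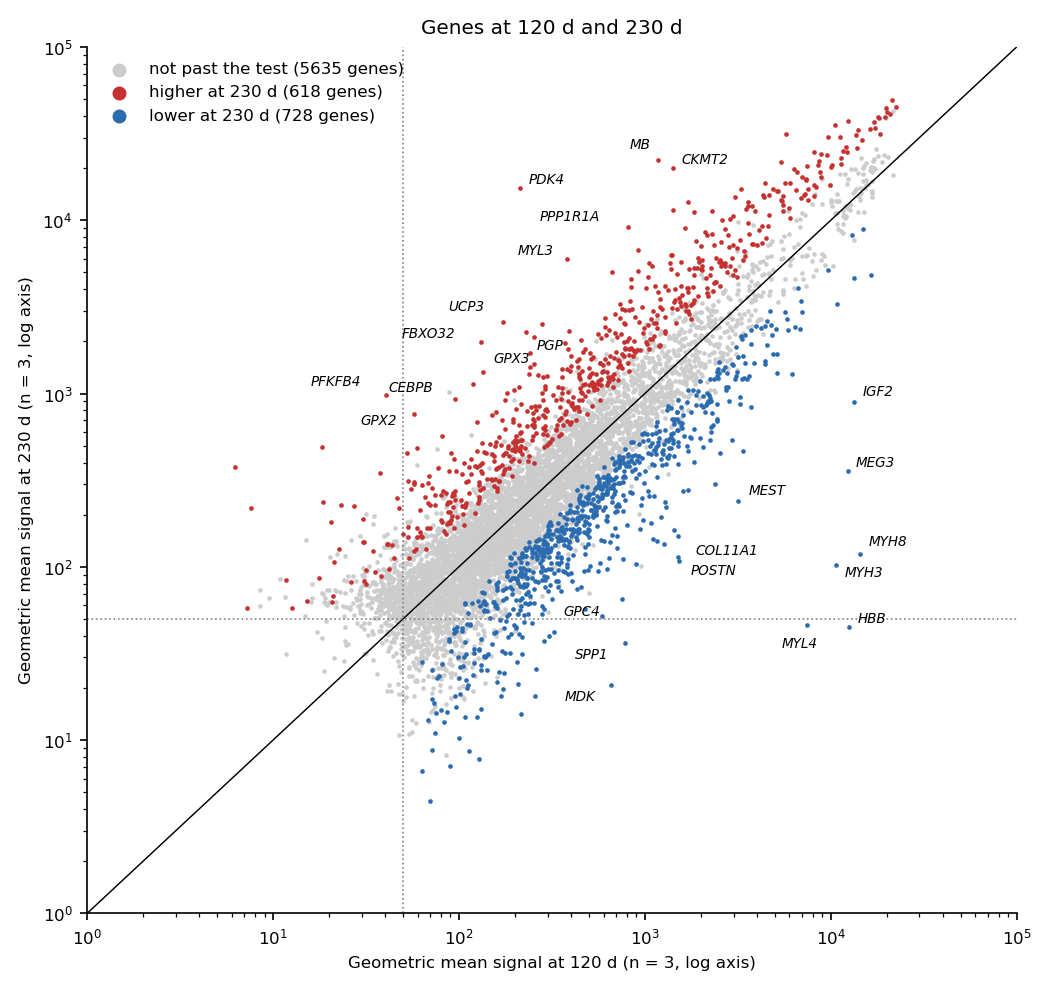
Each point is a gene, at its geometric mean MAS5 signal at 120 d (horizontal, log axis) and at 230 d (vertical, log axis), 3 arrays each; red points were higher and blue points lower at 230 d at an adjusted p under 0.01, and dotted lines mark a signal of 50. The 618 higher and 728 lower genes lie on both sides of the line of equal signal, and names mark the 12 genes that rose most and the 12 that fell most.

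Directions depend on the scale, because every array was set to the same mean. The 100 brightest probe sets took 18.2 to 20.4% of the signal at 120 d and 23.4 to 27.5% at 230 d, and the spiked hybridisation controls gave a mean log2 signal of 9.40 to 9.84 at 120 d and 10.4 to 10.8 at 230 d. Of the genes past the test, 45.9% were higher at 230 d, against 31.5% when arrays were scaled without those 100 probe sets and 2.73% when they were scaled to the hybridisation controls. The last scaling moved the median of all genes to -0.97 by the same step for every gene, so the values below are changes relative to the bulk of genes. On that scale the lists with a smaller median than the step went below 0, among them fatty acid oxidation, mitochondrial ribosomal proteins and proteasome subunits at -0.05, -0.28 and -0.41. The 3' to 5' ratio of actin, a sign of RNA quality, overlapped between the stages, at 0.933 to 1.14 at 120 d and 0.937 to 1.04 at 230 d.

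Signals of cell type markers also differed. All 12 markers of skeletal muscle tested were higher at 230 d, and their summed signal was 149384 to 189161 at 120 d and 303167 to 422679 at 230 d without overlap. Quantile normalization left 1 of the 12 past the test, and without 120 d replicates 1, 2 or 3 or 230 d replicates 1 or 3 the number was 7, 4, 3, 5 and 3. Of 6 erythroid markers ALAS2, HBB and HBG were lower, 1 of them with a signal of 50 required on all 6 arrays. Another 2 had positive log2 differences, 1 of them without overlap. The sum of the 6 was 13398 to 14287 at 120 d, most of it from HBB, and 390.3 to 566 at 230 d. Endothelial markers summed to 7441 to 8347 at 120 d and 4519.5 to 4647 at 230 d. Of these 12 markers 3 were lower, while 5 had positive log2 differences, 2 of them without overlap. Fibroblast markers summed to 74253 to 75857 at 120 d and 46206 to 55458 at 230 d, with 3 of 11 lower. That number was 6 on quantile normalization or without the 100 brightest probe sets in the scaling. It was 2 without 120 d replicates 2 or 3 and 0 with the 6 arrays alone. The sum of smooth muscle and pericyte markers ran the other way, at 11199 to 12187 at 120 d and 17275 to 21745 at 230 d. Of these 7 markers 2 were higher, ACTA2 and DES, the second also a gene of muscle fibres. Another 2 had negative log2 differences, 1 of them without overlap. Both calls were lost without any one of the 120 d arrays and without 230 d replicates 1 or 3. They were also lost with the 6 arrays alone, on quantile normalization and without the 100 brightest probe sets in the scaling. Scaling to the hybridisation controls turned ACTA2 to -0.11 and DES to -0.13. The 9 T and NK cell markers summed to 541 to 683 at 120 d and 841 to 1151 at 230 d, and 3 of them had negative log2 differences. CD3E was past the test at 1.36 ± 0.34 (SE; adjusted p = 0.0084). That call was lost in 11 of the 15 fits that left out 1 array and with the 6 arrays alone. Schwann cell and nerve markers summed to 768 to 883 and 465 to 578. Sums of macrophage, adipocyte and B cell markers were 1115 to 1174, 654 to 1378 and 233 to 318 at 120 d and 633 to 1216, 795 to 1075 and 334 to 402 at 230 d. In these bulk samples fewer cells of a type and less RNA per cell cannot be told apart.

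HBB, a beta-type globin of red blood cells, had the largest fall of all named genes. Its signals were 12778, 12623 and 12244 at 120 d and 15.7, 84.8 and 67.5 at 230 d. The 120 d arrays were within a few percent of each other and the 230 d arrays lay around the limit of 50, a fall of at least 251-fold (adjusted p = 6.8e-07). HBG, a fetal globin, gave 1217, 1286 and 998 at 120 d and 104, 109 and 249 at 230 d and a log2 difference of -3.04 ± 0.40 (SE; adjusted p = 0.00014), again with the stages far apart. Globin genes are near copies of each other, so these probe sets may read more than the gene they are named for. The newborn arrays already lay low, at a mean HBB signal of 249 ± 86.2 (SD, n = 3) at 150 d.

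**Figure D2:**
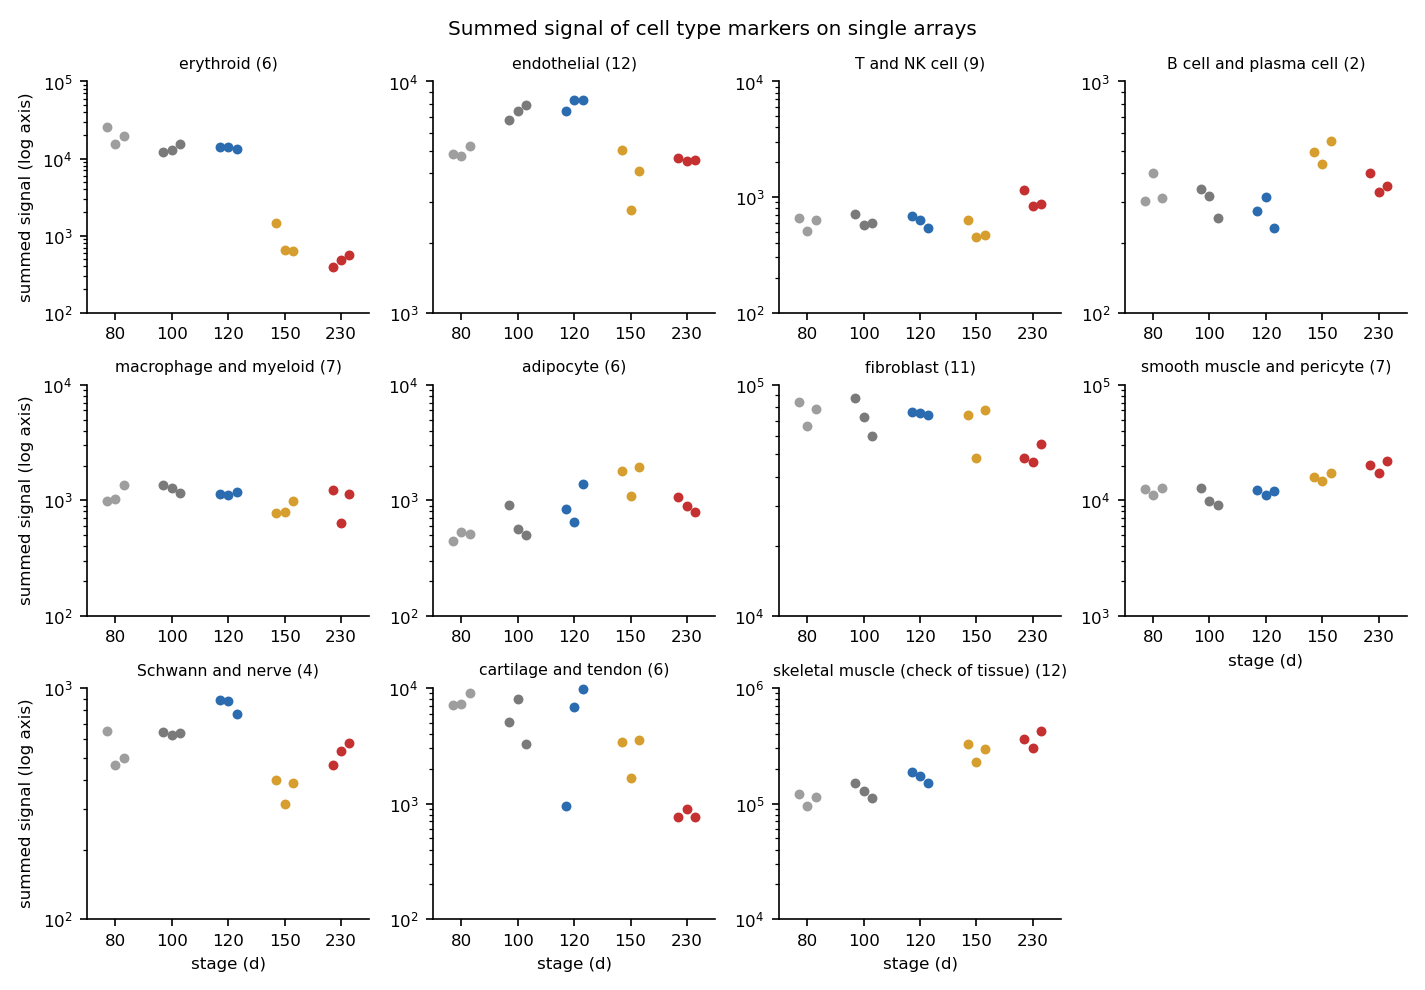
Each panel gives the summed MAS5 signal of the tested markers of a cell type (log axis, number of markers in brackets) on each of the 3 arrays at 80, 100, 120, 150 and 230 d. Erythroid sums were 13398 to 14287 at 120 d and 390.3 to 566 at 230 d, and cartilage and tendon sums differed among the 120 d arrays, from 959 to 9720.

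Developmental forms of the contractile proteins fell furthest. Of 9 such genes tested 5 were lower at 230 d, with a median log2 difference of -2.38. MYH3, the embryonic myosin heavy chain, gave 13162, 9207 and 9989 at 120 d and 66.3, 113 and 145 at 230 d. MYH8, the neonatal heavy chain, gave 14560, 14350 and 14160 at 120 d and 174, 164 and 57.5 at 230 d. Every lamb was far below every fetus in both, with log2 differences of -6.70 ± 0.51 (SE; adjusted p = 3.4e-06) and -6.93 ± 0.66 (SE; adjusted p = 1.6e-05). MYL4, the embryonic light chain also used by the atria, went from 5746, 8982 and 7949 to 75, 56.6 and 23.1, a fall of at least 149-fold, and at 150 d its mean was already 105 ± 96.2, while MYH3 and MYH8 still stood at 4519.7 ± 4181 and 1888 ± 2200.1 in the newborn. ACTC1, cardiac actin, which fetal skeletal muscle also uses, gave 22488, 16467 and 12051 at 120 d and 3514, 3306 and 9854 at 230 d. Its groups did not overlap although the third lamb lay closest to the fetuses. The log2 difference was -1.76 ± 0.37 (SE; adjusted p = 0.0033), and it was not past the test without 120 d replicates 1 or 2 or 230 d replicates 1 or 2. NES, an intermediate filament protein of immature fibres, fell 8.02-fold, from 4372, 2366 and 1335 to 313, 293 and 292. The probe sets of myosin heavy chains match closely related genes, and a set named for the adult MYH1 had a log2 difference of 1.04, whereas 2 other sets with that symbol gave -5.88 and -9.29.

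Adult contractile genes were higher at 230 d, the fast ones in 8 of 12 and the slow ones in 6 of 9, with median log2 differences of 1.06 and 0.98. MYL3, the light chain of slow fibres and ventricle, had the largest rise of them, with signals of 561, 254 and 396 at 120 d and 2595, 9627 and 8594 at 230 d. Its groups were well apart, although the first lamb was well below the others, and the log2 difference was 3.97 ± 0.53 (SE; adjusted p = 0.00016). TNNT1, slow troponin T, gave 9055, 9150.3 and 7758 at 120 d and 18866, 20742 and 26714 at 230 d, a log2 difference of 1.34 ± 0.26 (SE; adjusted p = 0.002) that was lost without 120 d replicate 3. Among the fast genes, TMOD4, which caps the thin filament, gave 5343, 5023 and 5778 at 120 d and 20244, 20829 and 24137 at 230 d, and MYOZ1, which ties calcineurin to the Z-disc, gave 13287, 12940 and 10873 at 120 d and 37000, 31279 and 44615 at 230 d. Each was higher in every lamb than in every fetus, by 2.01 ± 0.25 (SE; adjusted p = 0.00012) and 1.60 ± 0.24 (SE; adjusted p = 0.00041) on the log2 scale. Of the other adult genes, ACTA1, skeletal actin, was 2.12-fold higher, from 18906, 19920 and 16191 to 38335, 31041 and 48692, and was past the test only with all of 120 d replicates 1, 2 and 3 and 230 d replicates 1 and 3 in the fit. The tropomyosins TPM1 and TPM3 gave log2 differences of -0.84 and -0.44 without passing. The calls of MYOZ1, TNNT1 and ACTA1 were lost with quantile normalization.

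Z-disc and scaffold genes were higher in 8 of 14 and calcium handling genes in 4 of 10. LDB3, a Z-disc adaptor, gave 596, 450.2 and 348 at 120 d and 1860.1, 2085 and 2162 at 230 d, a log2 difference of 2.16 ± 0.27 (SE; adjusted p = 0.00012). ATP2A1, the calcium pump of fast fibres, gave 9515, 9680.3 and 7437 at 120 d and 22460, 20970 and 30019 at 230 d, and ATP2A2, the pump of slow fibres, gave 8133, 7492 and 6542 at 120 d and 16396, 19922 and 15527 at 230 d. Both pumps were higher in every lamb, by 1.46 ± 0.20 (SE; adjusted p = 0.00017) and 1.22 ± 0.17 (SE; adjusted p = 0.00021), though 1 of the 3 other probe sets of ATP2A2 differed by 0.03. Leaving out single arrays moved these counts. The fast genes past the test numbered 3 without 120 d replicates 2 or 3 or 230 d replicates 1 or 3 and 5 without 120 d replicate 1, the slow genes 2 to 3 without 120 d replicates 2 or 3 or 230 d replicate 3, the Z-disc genes 3 to 5 without any single array of the 6, and the calcium genes 2 without 120 d replicates 1 or 3 or 230 d replicates 1 or 3. Quantile normalization, which forces the brightest probe sets of all arrays to the same values, left 2 fast, 1 slow, 3 Z-disc and 3 calcium genes, and the 6 arrays alone 3, 2, 1 and 2.

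**Figure D3:**
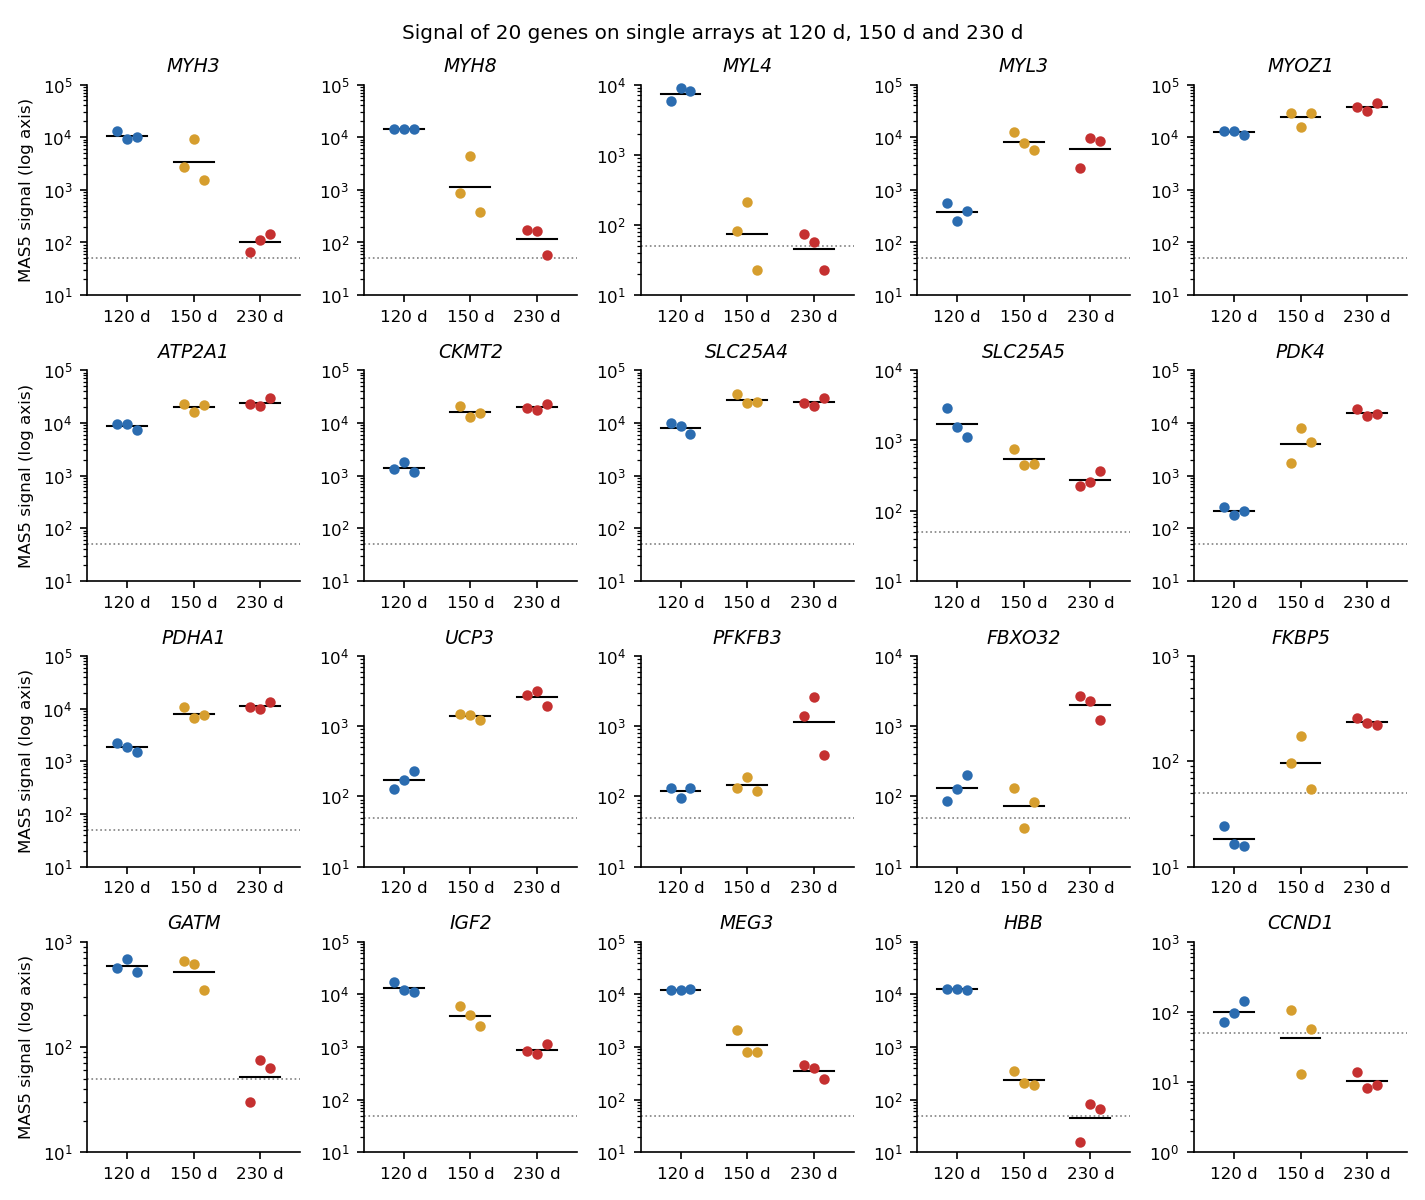
Panels give the MAS5 signal (log axis) of 20 genes on each of the 3 arrays at 120 d, 150 d and 230 d, with a bar at the geometric mean and a dotted line at 50. MYH3 fell stepwise through 150 d, CKMT2 was near its lamb level at 150 d already, and FBXO32 was still at fetal levels at 150 d and higher in all 3 lambs.

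Genes of the respiratory chain were higher at 230 d as a group, and complex I had the largest share past the test of any list of gene function. Of 36 complex I subunits 29 were higher at 230 d, with a median log2 difference of 1.27. The groups did not overlap in this direction for 33 of the 36, against 22.7% of all genes. NDUFS3, a core subunit, gave 2065, 1912 and 1727 at 120 d and 6949, 7456 and 8385 at 230 d. NDUFV3, an accessory subunit, gave 291, 329 and 253 at 120 d and 726, 1488 and 1121 at 230 d. The lambs were above the fetuses throughout, with log2 differences of 2.0 ± 0.16 (SE; adjusted p = 3.8e-06) and 1.88 ± 0.28 (SE; adjusted p = 0.00032). NDUFA5 had a log2 difference of -0.74 and did not pass, and its other 2 probe sets gave 1.34 and 1.99.

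Subunits of complexes II to V were higher in 31 of 41, with a median of 1.19, and in 15 with a median of 0.72 on quantile normalization. With the 6 arrays alone 11 of them and 19 of the complex I genes passed. UQCRC1, a core protein of complex III, gave 3115, 2829 and 1993 at 120 d and 9423, 9318 and 11443 at 230 d. SDHB, the iron-sulphur subunit of complex II, gave 4561, 3579 and 3246 at 120 d and 11207, 11487 and 13485 at 230 d. The stages did not overlap in either, and the log2 differences were 1.95 ± 0.23 (SE; adjusted p = 8.1e-05) and 1.68 ± 0.21 (SE; adjusted p = 0.00011). In complex IV, subunits exist in forms made mainly in heart and muscle and in forms made in most tissues, and the forms of a pair gave values of opposite sign. COX7A1, the heart and muscle form, gave 2622, 3681 and 2780 at 120 d and 9742, 11051 and 11185 at 230 d, whereas COX7A2, the common form, gave 1176, 1389.7 and 1098 at 120 d and 1139, 804 and 717 at 230 d and overlapped between the stages. Of the next pair, COX8B of muscle gave 1122, 1098 and 1150.3 at 120 d and 2236, 3469 and 2182 at 230 d (log2 difference 1.19 ± 0.23, SE, adjusted p = 0.002). Its common counterpart COX8A gave 1706, 2239 and 1710.3 at 120 d and 1818, 1284 and 1686 at 230 d (log2 difference -0.24 ± 0.31, SE, adjusted p = 0.59), and these groups overlapped. COX6A2, the muscle form, did not pass the test (log2 difference 1.29 ± 0.40, SE, adjusted p = 0.026), and COX6A1 had a log2 difference of -1.29 ± 0.18 (SE; adjusted p = 0.00023), but another probe set named COX6A1 gave 1.90, so the direction of that gene is uncertain. COX6A2, COX7A2, COX8A and COX8B were named here after their values were seen, and the difference between the forms of a pair was not tested.

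The entry of pyruvate into the mitochondrion and the citric acid cycle changed with the respiratory chain, 19 of 26 genes being higher with a median of 1.51. The enzyme complex that burns pyruvate and the kinase that switches it off rose side by side. PDHA1, the catalytic subunit of pyruvate dehydrogenase, gave 2204, 1864 and 1520 at 120 d and 10925, 9786 and 13265 at 230 d. PDK4, the kinase that phosphorylates and inactivates PDHA1, gave 252, 179 and 216 at 120 d and 18110, 13570 and 14499 at 230 d. PDK4 had the largest rise of all named genes, 71.4-fold (log2 difference 6.16 ± 0.40, SE, adjusted p = 1.1e-06), and PDHA1 rose 6.10-fold (log2 difference 2.61 ± 0.21, SE, adjusted p = 6.1e-06). At 150 d PDK4 stood between the stages, at 4676 ± 3123, with a wide spread among the newborns. MPC2, a subunit of the carrier that brings pyruvate in, rose from 1304, 1524 and 1385 to 6379, 6003 and 6501. GOT2, an aminotransferase of the malate-aspartate shuttle, gave 1062, 653 and 428 at 120 d and 5713, 4823 and 4687 at 230 d, and CS, citrate synthase, gave 2394, 2584 and 1949 at 120 d and 6816, 8005 and 10540 at 230 d. They were 7.58-fold and 3.63-fold higher in the lambs, each without overlap.

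Fatty acid uptake and oxidation genes were higher in 14 of 34, with a median of 0.87. UCP3, an uncoupling protein of muscle that follows fatty acid supply, gave 128, 173 and 231 at 120 d and 2796, 3215 and 1949.8 at 230 d. ACADM, the medium-chain dehydrogenase, gave 302, 201 and 269 at 120 d and 2349.6, 1806 and 2289 at 230 d. Both were over 8-fold higher, with log2 differences of 3.92 ± 0.34 (SE; adjusted p = 8.4e-06) and 3.07 ± 0.31 (SE; adjusted p = 2.4e-05). SLC25A20, which carries acylcarnitine into the mitochondrion, and FABP3, the fatty acid binding protein of muscle, rose by 2.40 ± 0.24 (SE; adjusted p = 2.8e-05) and 2.31 ± 0.24 (SE; adjusted p = 3.6e-05). MB, myoglobin, which stores oxygen in the fibre, was among the largest rises, from 1499, 1271 and 867 to 22085, 24960 and 20291, 18.9-fold, and stood at 7506 ± 4475 at 150 d. Without 230 d replicate 3 the count of 14 fell to 9.

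Mitochondrial ribosomal proteins were higher in 15 of 64, with a median of 0.64, a smaller shift than that of the respiratory chain. MRPL37 had the largest, from 697, 638 and 515 to 1540, 1506 and 1732, a log2 difference of 1.38 ± 0.18 (SE; adjusted p = 0.00013). The count was 6 and 8 without 120 d replicates 3 and 2, 9 without 230 d replicates 2 or 3 and 2 with the 6 arrays alone. Of 15 mitochondrial regulators 1 was past the test (6.67%, against 8.85% of all genes higher), and 2 were without 120 d replicate 3 or 150 d replicate 2. It was NAMPT, which makes the precursor of NAD, at 239.9, 278 and 298 at 120 d and 1019.6, 954 and 630.4 at 230 d (log2 difference 1.65 ± 0.25, SE, adjusted p = 0.00041). PPARGC1A, the coactivator PGC-1 alpha, gave 478, 456 and 526 at 120 d and 314, 329.8 and 256 at 230 d, below every fetal value but not past the test (log2 difference -0.70 ± 0.22, SE, adjusted p = 0.026). NMRK2, a nicotinamide riboside kinase of muscle, overlapped between 120 d and 230 d (794, 954 and 461 against 1356, 855 and 1193) although the newborn mean was 11084 ± 3099.

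High-energy phosphate transfer changed in both directions, with 10 of 15 genes higher and 2 lower. CKMT2, the creatine kinase of muscle mitochondria, gave 1363, 1781 and 1169 at 120 d and 19128, 17936 and 23262 at 230 d, with no overlap and a rise of 14.1-fold (log2 difference 3.82 ± 0.25, SE, adjusted p = 1.1e-06). GATM, which makes the precursor of creatine, went the other way, from 563, 691 and 516 to 30.4, 75.2 and 62.8. That is a fall of 11.2-fold (log2 difference -3.48 ± 0.41, SE, adjusted p = 6.4e-05), and the newborn mean was 540.0 ± 166. The 2 adenine nucleotide carriers, which exchange ADP for ATP across the inner membrane, diverged. SLC25A4, the form of heart and muscle, gave 9893, 8684 and 6293 at 120 d and 24281, 21147 and 29902 at 230 d. SLC25A5, the form of dividing cells, gave 2869.6, 1533 and 1112 at 120 d and 226, 259 and 364 at 230 d. The groups were apart in both, with log2 differences of 1.61 ± 0.22 (SE; adjusted p = 0.00019) and -2.62 ± 0.33 (SE; adjusted p = 0.00012). Without 120 d replicate 3, and on quantile normalization, the number of higher genes fell to 6, and with the 6 arrays alone to 4.

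Genes of glycolysis and glycogen use were higher in 18 of 36, with a median of 1.20. The strongest were kinases that set the level of fructose 2,6-bisphosphate, the activator of phosphofructokinase. PFKFB4 gave 30.5, 39.6 and 55.3 at 120 d and 1306, 597 and 1221 at 230 d, and PFKFB1, the liver and muscle form, 5.60, 29 and 1.5 at 120 d and 309, 438 and 402 at 230 d. At 120 d both lay under or around 50, which makes the rises at least 19.7-fold and at least 7.57-fold. PFKFB3 gave 132, 96.3 and 131 at 120 d and 1416, 2593 and 396 at 230 d. All 3 lambs exceeded the fetuses, although they differed among themselves by more than 6-fold, and the log2 difference was 3.25 ± 0.49 (SE; adjusted p = 0.00041). FBP2, the fructose bisphosphatase of muscle, rose from 1439.9, 1116 and 1782 to 11550, 10770 and 12189 (log2 difference 3.02 ± 0.58, SE, adjusted p = 0.0021).

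Several steps of this pathway are encoded by a muscle form and by forms of other tissues, and they differed side by side. PYGM, muscle glycogen phosphorylase, gave 5606, 5951 and 5586 at 120 d and 32788, 24426 and 38429 at 230 d (log2 difference 2.46 ± 0.23, SE, adjusted p = 1.4e-05). The liver form PYGL gave 85.7, 148 and 234 at 120 d and 87.6, 102 and 90.8 at 230 d and overlapped. For phosphoglycerate mutase, the muscle form PGAM2 rose from 11387, 12735 and 9607 to 29548, 27177 and 34242 and PGAM1 gave 562, 747 and 671 at 120 d and 365, 356 and 379 at 230 d, below every fetal value without passing the test (log2 difference -0.84 ± 0.30, SE, adjusted p = 0.051). For enolase, ENO3 of muscle gave 15402, 14058 and 12651 at 120 d and 32277, 29321 and 38023 at 230 d (log2 difference 1.24 ± 0.21, SE, adjusted p = 0.00084). ENO1 of most tissues gave 1529.6, 1788 and 1136 at 120 d and 828, 1109.6 and 1174 at 230 d (log2 difference -0.51 ± 0.21, SE, adjusted p = 0.087), with overlap. LDHA, the lactate dehydrogenase chain of fast muscle, gave 9519.9, 11628 and 8279 at 120 d and 29291, 27494 and 34660 at 230 d (log2 difference 1.64 ± 0.20, SE, adjusted p = 9.3e-05), though of its other probe sets 1 gave 2.04 and 1 gave -0.53. LDHB, the chain of heart, gave 1842, 1966 and 1750 at 120 d and 1063, 1299 and 1244 at 230 d (log2 difference -0.63 ± 0.20, SE, adjusted p = 0.033). In each of these pairs the muscle form passed the test upward and the other form did not pass in either direction, and the difference between the forms was not tested. The calls of PGAM2 and ENO3 were lost with quantile normalization, and PGAM1 passed, as lower, without 150 d replicate 2. SLC2A1, the glucose transporter of most fetal tissues, gave 101, 169 and 139 at 120 d and 13.5, 49.8 and 79.3 at 230 d (adjusted p = 0.014). It passed, as lower, without 230 d replicate 3. All genes of this paragraph were named after their values were seen.

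**Figure D4:**
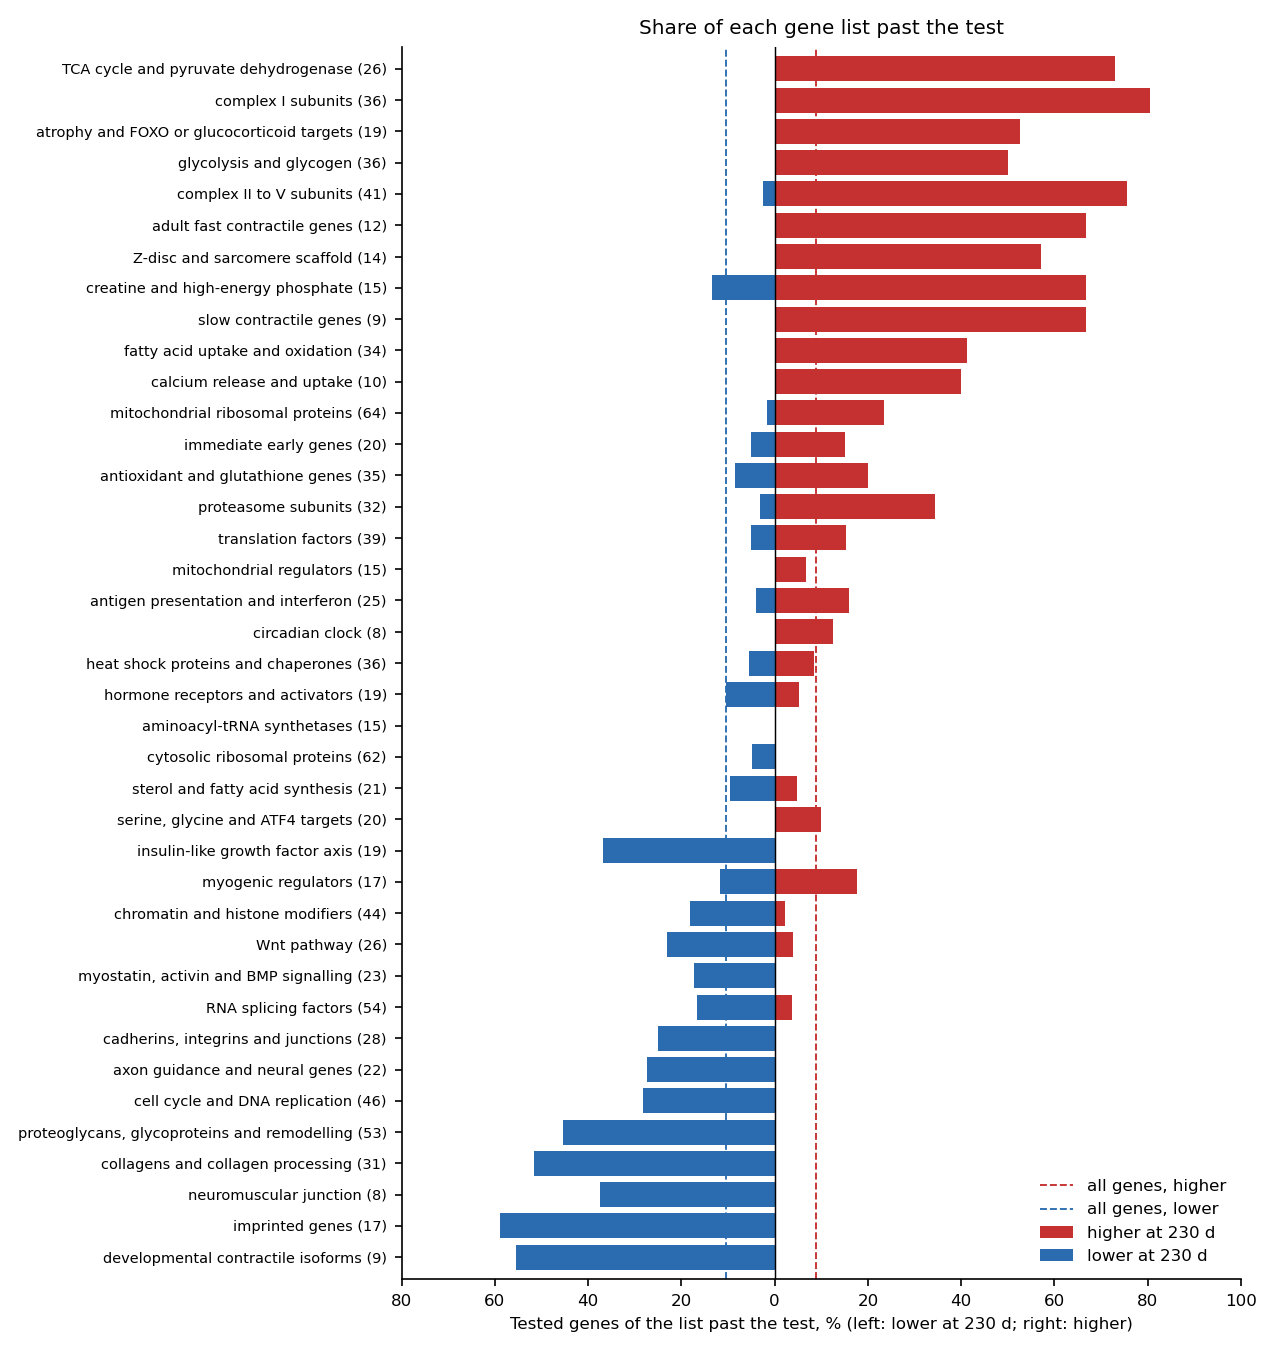
Bars give the share of each list's tested genes (number in brackets) that were higher (red, right) or lower (blue, left) at 230 d at an adjusted p under 0.01, with dashed lines at the shares over all genes, 8.85% higher and 10.4% lower. Lists are ordered by median log2 difference, from the citric acid cycle (median 1.51) at the top to developmental contractile isoforms (-2.38) at the bottom.

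Imprinted genes, which are expressed from the copy of a single parent, were lower in 10 of 17, with a median of -1.45. MEG3, a maternally expressed noncoding RNA, gave 12094, 12076 and 12793 at 120 d and 456, 402 and 245 at 230 d. IGF2, the fetal insulin-like growth factor, gave 17438, 12236 and 11252 at 120 d and 853, 749.9 and 1121 at 230 d. MEST, a paternally expressed gene of growing mesoderm, gave 2909, 2979 and 3709.7 at 120 d and 206, 306 and 221 at 230 d. The stages were far apart in all 3, which fell 34.6-fold, 15.0-fold and 13.2-fold, with log2 differences of -5.11 ± 0.34 (SE; adjusted p = 1.2e-06), -3.90 ± 0.29 (SE; adjusted p = 3.4e-06) and -3.72 ± 0.19 (SE; adjusted p = 2.8e-07). Of 2 further probe sets for IGF2 the log2 differences were -3.51 and -0.13. DLK1, a neighbour of MEG3 expressed from the other parental copy, fell from 5726, 5838 and 7135 to 1164, 1025 and 1863, and PLAGL1, a zinc finger regulator, from 1064, 1361 and 1469 to 276, 247 and 194. PEG10 gave 369, 442 and 5258 at 120 d and 88.9, 103 and 112 at 230 d, lower in every lamb, and did not pass. GNAS and GRB10 had log2 differences of 0.10 and 0.88 and did not pass, but 3 other probe sets of GNAS gave -1.38, -2.08 and -0.94, and GRB10 passed, as higher, without 150 d replicate 2.

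In the insulin-like growth factor axis 7 of 19 genes were lower. They were IGF2, IGF2R, the RNA binding protein IGF2BP3 and the binding proteins IGFBP2, IGFBP3, IGFBP4 and IGFBP6. IGF2R, which clears IGF2, gave 4841, 3974 and 4441 at 120 d and 1547, 1564 and 1323 at 230 d. IGFBP2, a binding protein, gave 105, 148 and 138 at 120 d and 6.10, 13.1 and 5.80 at 230 d. IGF2R fell 2.99-fold, and IGFBP2 fell at least 2.57-fold, since all lambs were under 50. The ligand IGF1 gave a log2 difference of 0.28 ± 0.30 (SE; adjusted p = 0.51) and did not pass, nor did the receptor IGF1R, whose fetal mean was under 50 (adjusted p = 0.17). Without 120 d replicate 2 the count fell to 4.

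Cell cycle and DNA replication genes were lower in 13 of 46, with a median of -1.0. The groups did not overlap in this direction for 29 of the 46, against 25.2% of all genes. NUSAP1, a protein of the mitotic spindle, gave 289.6, 308 and 267 at 120 d and 32.5, 24 and 67.6 at 230 d, and STMN1, which destabilises microtubules, gave 3911, 3723 and 3545 at 120 d and 744, 845 and 932 at 230 d. Both were lower in every lamb. NUSAP1, with a lamb mean under 50, fell at least 5.76-fold (adjusted p = 0.0007), and STMN1 had a log2 difference of -2.15 ± 0.34 (SE; adjusted p = 0.00055). MCM7, of the replicative helicase, fell at least 3.15-fold. CCND1, cyclin D1, fell at least 2.0-fold, from 71.2, 98.2 and 144 to 14.2, 8.20 and 9.20, and its partner kinase CDK4 from 505, 586 and 539.5 to 208, 191 and 268. The list also holds an inhibitor of division, CDKN1C, which fell as well, from 7966, 5666 and 7174 to 2219.6, 2191 and 2685.

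Chromatin genes were lower in 8 of 44 and splicing factors in 9 of 54, with medians of -0.40 and -0.55. The shares, 18.2% and 16.7%, compare with 10.4% over all genes. The lambs all lay below the fetuses in 21 and 27 of these genes, against 25.2% of all genes. The splicing count was 16 on quantile normalization, 19 when the 100 brightest probe sets were left out of the scaling, 15 with a signal of 50 required on all 6 arrays and 3 with the 6 arrays alone. EZH2, the methyltransferase of histone H3, gave 319, 321 and 241 at 120 d and 107, 93.6 and 44.3 at 230 d (log2 difference -1.93 ± 0.31, SE, adjusted p = 0.00063). HMGN1, a nucleosome binding protein, fell from 5006, 4105 and 4192 to 1325, 1516 and 1848. HMGN2, its relative, fell from 4457, 5080 and 5169 to 1555, 1708 and 1831, and neither overlapped. Among splicing factors RBFOX2 gave 337, 971 and 1587 at 120 d and 115, 192 and 241 at 230 d, with fetuses that differed among themselves, and a log2 difference of -2.21 ± 0.47 (SE; adjusted p = 0.0035) that was lost without 120 d replicates 2 or 3 or 230 d replicate 1. Without 150 d replicate 2 the splicing count was 14. RBM38, an RNA binding protein of differentiated muscle, ran against the list, from 169, 229 and 102 to 722, 961 and 699 (log2 difference 2.31 ± 0.30, SE, adjusted p = 0.00013). CELF1 rose by 1.44 ± 0.24 (SE; adjusted p = 0.00074), but its other probe set gave -0.97.

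Genes of the extracellular matrix were lower at 230 d. Collagens and the enzymes that process them were lower in 16 of 31, and proteoglycans, glycoproteins and remodelling genes in 24 of 53, with medians of -1.32 and -1.06. With the 6 arrays alone the counts were 8 and 11. GPC4, a glypican that holds growth factors at the cell surface, gave 883, 689 and 698 at 120 d and 81.1, 72.2 and 47.2 at 230 d. GPC3, another glypican, gave 3322, 3736 and 3087 at 120 d and 458, 447 and 488 at 230 d. ASPN, a small proteoglycan, gave 1439, 1285 and 1593 at 120 d and 175, 171 and 146 at 230 d. The stages were far apart in all 3, with log2 differences of -3.53 ± 0.22 (SE; adjusted p = 9e-07), -2.86 ± 0.18 (SE; adjusted p = 8.7e-07) and -3.14 ± 0.23 (SE; adjusted p = 2.7e-06). POSTN, periostin, a matrix protein of growing connective tissue, fell 13.1-fold, from 1000, 1265 and 2683 to 143, 56.3 and 187. COL1A1, the main chain of type I collagen, gave 9604, 15530 and 15674 at 120 d and 3863, 6094 and 4231 at 230 d (log2 difference -1.52 ± 0.29, SE, adjusted p = 0.002), and its newborn mean, 13010 ± 4219.5, was within the fetal range. Its call was lost without 120 d replicates 2 or 3. COL1A2 and COL3A1, which belong to the same fibrils, had log2 differences of -0.30 and -0.24 and did not pass, and another probe set of COL1A2 gave -1.63. SERPINH1, the chaperone of collagen, fell from 3274, 3385 and 3094 to 896, 695 and 1065 (log2 difference -1.90 ± 0.21, SE, adjusted p = 5.3e-05).

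Cartilage and tendon markers, which differed among the fetuses, moved with part of this fall. Their sum was 959, 6842 and 9720.1 on the 120 d arrays of replicates 1, 2 and 3 and 761 to 898 on the 230 d arrays, so that replicate 1 was near the lambs. Of the 6 markers tested, 2 had positive log2 differences, 1 of them higher in every lamb. COL2A1, the collagen of cartilage, gave 175, 1351 and 1909 at 120 d and 144, 114 and 83.1 at 230 d, and COL11A1, found with it, gave 333, 2893 and 3677 at 120 d and 109, 152 and 75.2 at 230 d. TNMD, of tendon, gave 91.7, 2289.9 and 3806 at 120 d and 106, 287 and 274 at 230 d, and it passed without replicate 1 (adjusted p = 0.0005) but not with it. In all 3 genes only replicates 2 and 3 carried the high signal, and the call of COL2A1 was lost in 13 of the 15 fits that left out 1 array. Its 3 other probe sets gave log2 differences of 0.53, -0.05 and -0.25. Without replicate 2 or replicate 3 the collagen count fell from 16 to 9, and without replicate 3 the proteoglycan count fell from 24 to 14. All genes lower at 230 d fell alike in these fits, from 728 to 461 without replicate 2 and to 451 without replicate 3. With both left out, an alternative chosen after seeing the data that keeps a lone fetus assumed to vary like the other groups, 5 collagen and 8 proteoglycan genes passed, while 510 probe sets passed in all. Of the other matrix genes, POSTN and COL1A1 were lowest in replicate 1 among the fetuses. GPC4, GPC3 and ASPN stood above or between replicates 2 and 3 there. The part of cartilage and tendon in the collagen result was not tested.

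Junction and adhesion genes were lower in 7 of 28 and axon guidance genes in 6 of 22, the second count being 9 without the 100 brightest probe sets in the scaling and 4 with a signal of 50 required on all 6 arrays. CDH11, a cadherin of mesenchyme, gave 919.8, 913 and 867 at 120 d and 121, 90.1 and 102 at 230 d (log2 difference -3.12 ± 0.19, SE, adjusted p = 7e-07). ITGA7, the laminin receptor chain of muscle, gave 2239, 1529 and 1790.4 at 120 d and 472, 359 and 381 at 230 d (log2 difference -2.19 ± 0.27, SE, adjusted p = 0.0001). The groups did not overlap in either. SEMA6A, a semaphorin, fell from 275, 289 and 265 to 85.3, 87.6 and 109.6. At the neuromuscular junction 3 of 8 genes were lower, among them CHRND, the delta chain of the acetylcholine receptor, at 166, 123 and 128 at 120 d and 45.8, 34.9 and 17.4 at 230 d (a fall of at least 2.75-fold, adjusted p = 0.0002). CHRNE, the chain of the adult receptor, had a log2 difference of 0.68 and CHRNG, that of the fetal receptor, a lamb mean under 50, and neither passed. The lambs were all under 50, so that CHRND was tested through its fetal values, and with a signal of 50 required on all 6 arrays the junction count was 1. It was also 1 without 120 d replicates 1 or 2 or 230 d replicates 1 or 2, and the axon guidance count was 3 without 120 d replicate 2. With the 6 arrays alone these counts were 0 and 1.

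Of 17 regulators of muscle formation 3 were higher (17.6%, against 8.85% of all genes). Another 2, ITGA7 and TCF12, were lower (11.8%, near the 10.4% of all genes). Without 120 d replicate 3 the number higher was 1, and without 150 d replicate 1 the number lower was 4. MYF6, the myogenic factor of mature fibres, gave 2279.7, 1769.8 and 2111 at 120 d and 6232, 5358 and 4856 at 230 d (log2 difference 1.42 ± 0.24, SE, adjusted p = 0.00084), and TEAD4, a partner of YAP, gave 256, 275 and 133 at 120 d and 620.1, 654 and 704 at 230 d. Both were higher in every lamb, though TEAD4 was lost without 120 d replicate 3. MYOD1, the factor of commitment, gave 257, 167 and 156 at 120 d and 124, 148 and 113 at 230 d. MYOG, that of differentiation, gave 935, 599 and 628 at 120 d and 239, 446 and 574 at 230 d. They were lower in every lamb but did not pass, with log2 differences of -0.56 ± 0.38 (SE; adjusted p = 0.29) and -0.84 ± 0.38 (SE; adjusted p = 0.11). MSTN, myostatin, which restrains muscle growth, gave 331, 566 and 429 at 120 d and 198, 211 and 145 at 230 d (log2 difference -1.24 ± 0.38, SE, adjusted p = 0.024), and FST, follistatin, which binds it, gave 847, 564 and 988 at 120 d and 274, 191 and 279.9 at 230 d (log2 difference -1.67 ± 0.28, SE, adjusted p = 0.00082). The ligand did not pass the test and its binding protein did. Myostatin, activin and BMP genes were lower in 4 of 23 (17.4%, against 10.4% of all genes), and in 1 with the 6 arrays alone. Wnt genes were lower in 6 of 26 (23.1%, against 10.4% of all genes) and higher in 1 (3.85%, against 8.85%). The lower Wnt count was 1 without 120 d replicate 2 or 230 d replicate 1 and 2 without 120 d replicate 3. With the 6 arrays alone it was 0.

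Targets of FOXO factors and glucocorticoids, many of which rise when muscle shrinks or fasts, were higher in 10 of 19, with a median of 1.27. FBXO32, the ubiquitin ligase atrogin-1, gave 86, 129 and 202 at 120 d and 2699.8, 2322 and 1243 at 230 d. CEBPB, a transcription factor, gave 94.2, 92.5 and 97.8 at 120 d and 1392, 1035 and 569.6 at 230 d. FKBP5, a cochaperone of the glucocorticoid receptor, gave 24.5, 16.5 and 15.6 at 120 d and 259, 233 and 223 at 230 d. All 3 were far above the fetuses in every lamb, by 15.1-fold, 9.87-fold and at least 4.75-fold. The log2 differences of FBXO32 and CEBPB were 3.92 ± 0.45 (SE; adjusted p = 5.7e-05) and 3.30 ± 0.30 (SE; adjusted p = 1.3e-05), and FKBP5, whose fetal values all lay under 50, had an adjusted p = 0.0016. With a signal of 50 required on all 6 arrays 7 genes of the list passed. In the newborn FBXO32 was at 84 ± 47.7, FKBP5 at 107 ± 59.8 and CEBPB at 298 ± 42.3. DDIT4, which restrains the kinase mTOR, rose from 3524, 4009.6 and 5791 to 19980, 12702 and 10703, and GLUL, glutamine synthetase, from 4957, 3867 and 5306 to 17844, 12892 and 11697. The glucocorticoid receptor itself, NR3C1, had a log2 difference of -0.60 and did not pass. The call of DDIT4 was lost with quantile normalization.

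Proteasome subunits were higher in 11 of 32, with a median of 0.52, and the differences were small, such as 1.22 ± 0.24 (SE; adjusted p = 0.0023) for PSMA1, which was lost without 120 d replicate 3. The count was 6 on quantile normalization, 5 without 120 d replicate 3 and 6 and 7 without 230 d replicates 3 and 1. With the 6 arrays alone it was 0. Antioxidant genes were higher in 7 of 35 (20%, against 8.85% of all genes) and lower in 3 (8.57%, against 10.4%). GPX3, the secreted glutathione peroxidase, gave 119, 128 and 163 at 120 d and 1299, 1275 and 1439 at 230 d, and GPX7, a peroxidase of the secretory pathway, gave 1050, 1346 and 1526 at 120 d and 182, 274 and 219 at 230 d. They went in opposite directions, by 3.30 ± 0.30 (SE; adjusted p = 1e-05) and -2.54 ± 0.27 (SE; adjusted p = 3.6e-05). PRDX3, the mitochondrial peroxiredoxin, rose 4.40-fold, and PRDX4, which works in the endoplasmic reticulum, fell 2.23-fold.

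Antigen presentation and interferon genes were higher in 4 of 25 (16%, against 8.85% of all genes) and lower in 1 (4%, against 10.4%). The lower gene was IFIT5, an interferon-induced gene, at 1234, 1312 and 1608 at 120 d and 599.7, 554 and 538 at 230 d (log2 difference -1.29 ± 0.18, SE, adjusted p = 0.00023). B2M, the light chain of class I molecules, gave 743, 1033 and 913 at 120 d and 2919, 2762 and 2667 at 230 d (log2 difference 1.65 ± 0.26, SE, adjusted p = 0.00057). BOLA-DRB3, of class II, gave 138, 76.1 and 70.7 at 120 d and 853, 228 and 484 at 230 d. BOLA-DRA, its partner chain, gave 87.4, 49.8 and 43 at 120 d and 685, 149.7 and 268 at 230 d. The lambs lay above the fetuses, with the first lamb highest in both class II genes, as it was in the sum of T and NK cell markers, whose part was not tested. The count higher was 2, and BOLA-DRA was lost, without 120 d replicates 2 or 3 or 230 d replicate 1. With the 6 arrays alone that count was 1. Immediate early genes, which respond within minutes to handling or stress, were higher in 3 of 20, and in 5 without 230 d replicate 3. The 3 were 15% of the list, against 8.85% of all genes, and 5% were lower, against 10.4%. The 1 lower gene was IER3, an early response gene, at 1818, 1101 and 1718 at 120 d and 384, 360.3 and 439 at 230 d (log2 difference -1.94 ± 0.26, SE, adjusted p = 0.00016). ZFP36, which destabilises messenger RNA, gave 201, 204 and 121 at 120 d and 1043, 637 and 519.6 at 230 d (log2 difference 2.04 ± 0.31, SE, adjusted p = 0.00041). FOS gave 125, 65.6 and 84.2 at 120 d and 980.3, 1402 and 779 at 230 d, higher in every lamb, and did not pass (log2 difference 3.53 ± 0.97, SE, adjusted p = 0.015) except without 100 d replicate 3 or 150 d replicate 3. NR1D1, of the circadian clock, gave 191, 155 and 249.5 at 120 d and 476, 566 and 532 at 230 d (log2 difference 1.43 ± 0.33, SE, adjusted p = 0.0054), a call lost without 120 d replicates 1 or 2 or any of the 230 d arrays. The hour of sampling was not known here.

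Several lists had few genes past the test, beside 8.85% higher and 10.4% lower over all genes. Cytosolic ribosomal proteins had a median of 0.02, and 3 of 62 passed the test, all lower, led by RPL7A at 4132, 5579 and 4083 at 120 d and 2172, 1651 and 1931 at 230 d (log2 difference -1.26 ± 0.20, SE, adjusted p = 0.00056). RPL14 and RPL3 had log2 differences of -0.67 ± 0.16 (SE; adjusted p = 0.0082) and -0.75 ± 0.17 (SE; adjusted p = 0.0052). On quantile normalization 19 ribosomal proteins were lower, and without any one array of the 6 the count was 1. Of 15 aminoacyl-tRNA synthetases limma called 0, and 1 reached an unadjusted p under 0.05. Translation factors had a larger share higher, 6 of 39 (15.4%), and 2 were lower (5.13%). The lambs all lay above the fetuses in 21 of the 39, against 22.7% of all genes. The number higher was 3 without 120 d replicates 2 or 3 or any of the 230 d arrays. It was 4 on quantile normalization, 3 without the 100 brightest probe sets in the scaling and 0 with the 6 arrays alone. EIF2S3 fell from 3226, 2985 and 3162 to 1453, 1419 and 1144. EEF2K, which inactivates an elongation factor of translation, rose from 133, 241 and 182 to 503, 469 and 392 (log2 difference 1.33 ± 0.25, SE, adjusted p = 0.0015). Genes of sterol and fatty acid synthesis were lower in 2 of 21 (9.52%, near the 10.4% of all genes), and the 1 higher gene was lost without any one array of the 6.

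Set beside the newborn, some differences were present at 150 d and others were not. The differences from 120 d at 150 d and at 230 d share the 120 d arrays, so they are given side by side only. Complex I had medians of 1.49 at 150 d and 1.27 at 230 d, the citric acid cycle 1.64 and 1.51, and complexes II to V 1.16 and 1.19. FOXO and glucocorticoid targets had -0.31 and 1.27, collagens -0.51 and -1.32, and developmental contractile forms -0.48 and -2.38. Sterol and fatty acid synthesis and the serine, glycine and ATF4 list changed sign, from 0.59 and 0.52 at 150 d to -0.20 and -0.32 at 230 d. INSIG1, which holds back sterol synthesis, followed the same course, with means of 313 ± 29.1 at 120 d, 497 ± 111 at 150 d and 128 ± 8.35 at 230 d. ATF4 itself had means of 2924 ± 571, 5278 ± 1926 and 10287 ± 2109.

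**Figure D5:**
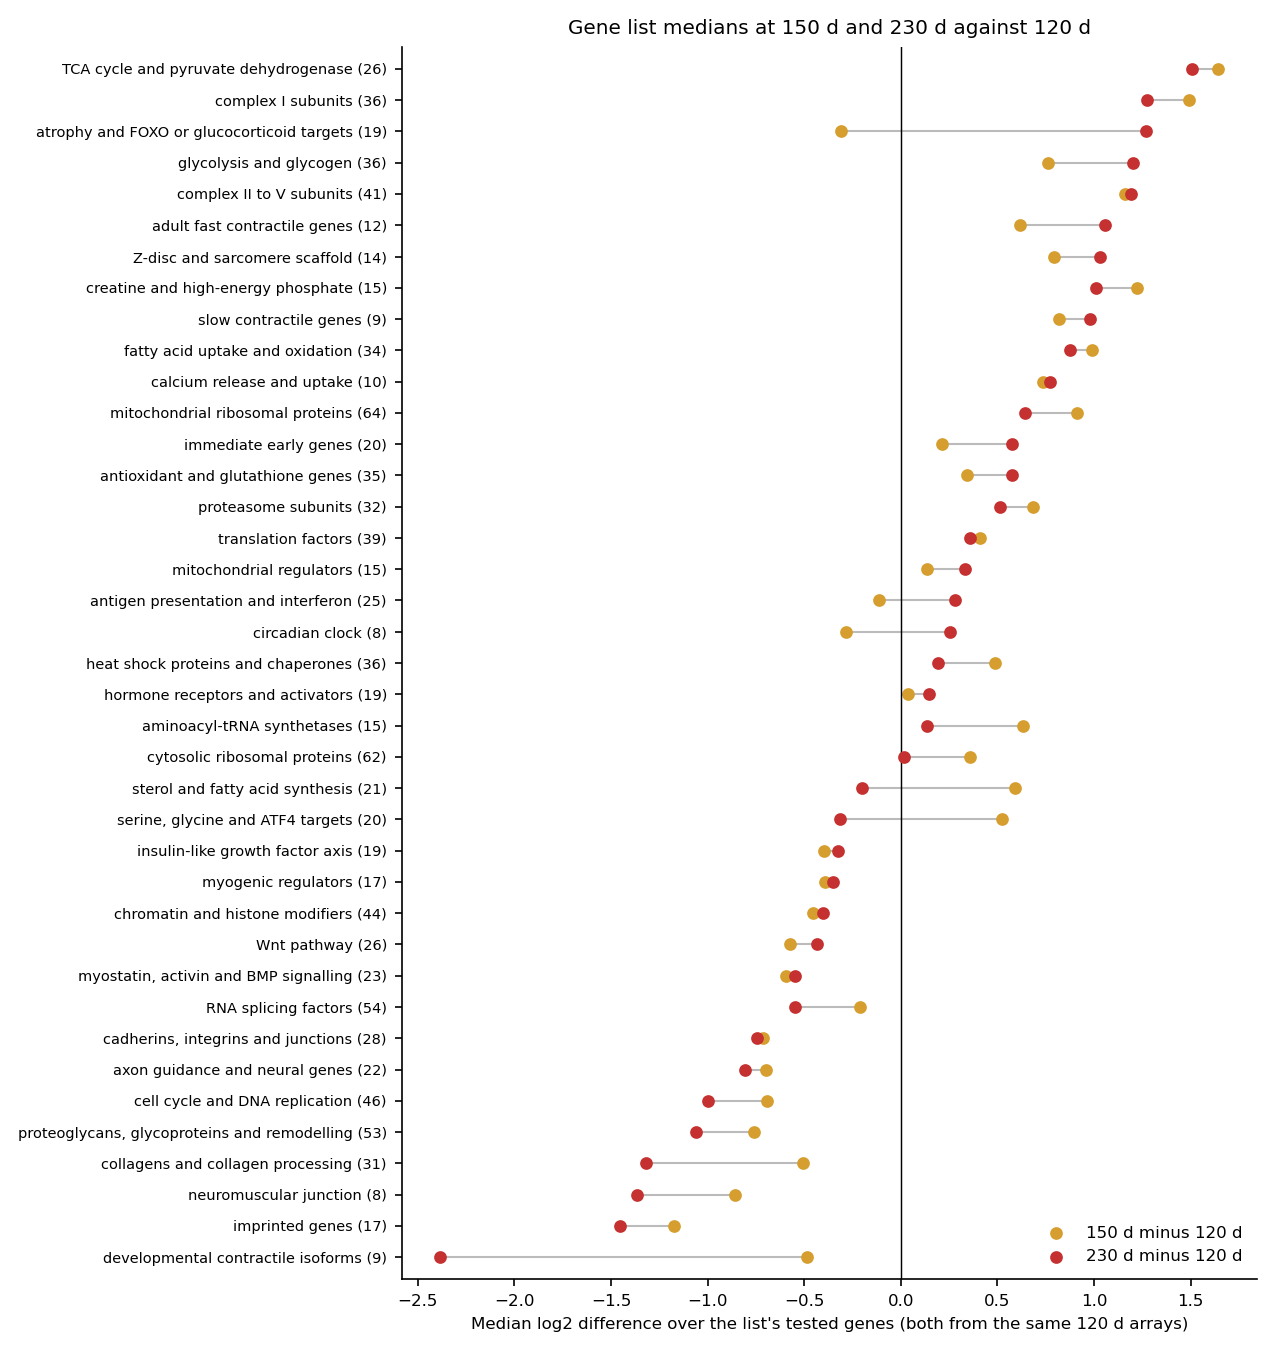
Points give the median log2 difference from 120 d over each list's tested genes (number in brackets) at 150 d (yellow) and 230 d (red), both against the same 120 d arrays. Respiratory chain medians at 150 d and 230 d lie close together, whereas FOXO and glucocorticoid targets lie at -0.31 at 150 d and 1.27 at 230 d.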

How the data were processed

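Per the labels, RNA of longissimus dorsi was hybridised to a 1-colour bovine expression array, with 3 animals at each of 5 stages. The deposited values are MAS5 signal intensity on a linear scale, which the authors scaled to a trimmed mean of 200 on each array. From 24128 probe sets 112 controls were removed, and the 14115 with a signal of 50 or more on at least 3 of the 6 arrays were kept. Log2 signals were fitted with limma 3.58.1 in R 4.3.3, with 1 mean per stage over all 15 arrays and 10 residual degrees of freedom, and the contrast of 230 d with 120 d was tested two-sided with Benjamini-Hochberg adjustment over all kept probe sets at 0.01. Arrays have no read depth, and the number of arrays limits the precision. Samples were grouped by their stage labels.

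Gene names came from the platform's annotation, and 9057 kept probe sets had 1 symbol. A gene was read from its brightest probe set by mean log2 signal over the 15 arrays, and other sets are given where they disagree. A fold against a geometric mean under 50 was taken against 50 and written as at least. The members and gene lists were chosen with earlier results of these data known. Genes were named by rule, as the 12 largest rises and 12 largest falls among non-overlapping genes past the test, up to 4 genes per list in each direction, and up to 2 of the brightest in a list with fewer than 2 past the test. That gave 188 genes, not all of which the text names, and 44 more were named after their values were seen, being ACTC1, MYH1, TPM1, TPM3, NDUFA5, COX7A2, COX8B, COX8A, COX6A2, MPC2, CS, PYGM, PYGL, PGAM2, PGAM1, ENO3, ENO1, LDHA, LDHB, SLC2A1, DLK1, PEG10, GNAS, GRB10, IGF1R, IGF1, CCND1, CDK4, CDKN1C, COL1A2, COL3A1, SERPINH1, TNMD, CHRNE, CHRNG, MYOD1, MYOG, MSTN, FKBP5, DDIT4, GLUL, NR3C1, FOS and RPL3L. The fit was tested on simulated data. Alternatives covered the arrays fitted, the scaling, an offset of 16 before log2, the filter, the eBayes options, a threshold of 0.05, a replicate block and leaving out each array. Figures were drawn with Python 3.11.15 and matplotlib 3.10.9. Sequences were not used here.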

Additional observations from a re-analysis of the deposited data

How the results depend on the processing

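Fewer differences passed in the fits that used only part of the stages. The 6 arrays alone called 899 probe sets and 522 genes (266 higher, 256 lower), and the 9 arrays of 120 d, 150 d and 230 d called 1243 and 688 (361 higher, 327 lower). Without a filter on low signals 1512 probe sets and 838 genes passed (395 higher, 443 lower), and at an adjusted p of 0.05 these were 4300 and 2303 (1027 higher, 1276 lower). Scaling to the hybridisation controls called 5865 probe sets and 3005 genes (82 higher, 2923 lower), and equal array medians put 55.5% of the called genes higher. Leaving out 1 array at a time gave 1507 to 2534 probe sets, 848 to 1393 genes, 397 to 630 higher and 451 to 766 lower, the lowest each without 120 d replicate 3. Without 120 d replicates 2 and 3 together, an alternative chosen after seeing the data, 510 probe sets and 296 genes passed (163 higher, 133 lower). The causes of these changes were not tested.

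Replicate numbers did not pair the arrays. The correlations of the deviations from the stage means of same-numbered 120 d and 230 d arrays were 0.037, 0.053 and -0.060, and with a replicate block 2429 probe sets and 1330 genes passed (620 higher, 710 lower). Of 190 named genes past the test, 130 kept the call in all 15 fits that left out 1 array, 105 kept it with the 6 arrays alone and 181 with the block. All 190 kept it with an offset of 16 and with the other eBayes options. Directions turned under 1 setting, scaling to the hybridisation controls, which gave log2 differences of -0.015 for EIF4G3, -0.026 for EIF1, -0.069 for HSPB8, -0.091 for HSPA9, -0.12 for SMARCD3, -0.11 for ACTA2 and -0.13 for DES. Signals near 50 limit what the arrays can show. Of the called genes, 35 higher and 98 lower had a stage mean under 50, where a fitted difference depends on background.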

Other observations

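The remaining genes with the largest rises and falls belong to none of the groups above. PPP1R1A, an inhibitor of protein phosphatase 1, gave 698, 868 and 872 at 120 d and 9356, 9504 and 8519.8 at 230 d (log2 difference 3.50 ± 0.31, SE, adjusted p = 9.4e-06). PGP, which dephosphorylates phosphoglycolate and glycerol phosphate, gave 260, 400.1 and 116 at 120 d and 2062, 2209 and 2604 at 230 d (log2 difference 3.32 ± 0.40, SE, adjusted p = 7.8e-05), and its newborn mean, 6169 ± 3192, was higher than either. GPX2, a glutathione peroxidase best known from the gut, gave 179.7, 65.1 and 16.4 at 120 d and 564, 844 and 928 at 230 d (log2 difference 3.72 ± 0.62, SE, adjusted p = 0.00073), with fetuses that differed by more than 10-fold. SPP1, osteopontin, fell from 542, 675 and 1310.2 to 37.1, 20.8 and 63.2 (at least 15.6-fold, adjusted p = 0.00045), and MDK, the growth factor midkine, from 751, 561 and 669.7 to 24.4, 11.5 and 32.4, at least 13.1-fold.

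RPL3L, the form of ribosomal protein L3 that is made in heart and skeletal muscle, gave 646, 793 and 806 at 120 d and 2000.1, 2636 and 2003 at 230 d (log2 difference 1.56 ± 0.21, SE, adjusted p = 0.00016), whereas RPL3, the common form, had a log2 difference of -0.75 ± 0.17 (SE; adjusted p = 0.0052). RPL3L was named after its values were seen, and the difference between the 2 genes was not tested. The call of RPL3 was lost in 6 of the 15 fits that left out 1 array.

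The comparison of 80 d with 100 d shares no array with that of 120 d with 230 d. Of the 618 genes higher at 230 d than at 120 d, 383 (62.0%) were higher at 100 d than at 80 d, and of the 728 lower genes 321 (44.1%) were, against 51.3% of all 6981 genes. Across all genes the log2 differences of the 2 comparisons had a correlation of 0.14. Genes are not independent replicates, and the test took its spread from all 15 arrays.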
